A study of Mus musculus with 16 samples.

Results

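The change in the T cell receptor (TCR) repertoire between day 5 and day 14 of tumour growth was followed in mice whose T cells carry a deleted Matr3 gene. The 4 TCR libraries of the knockout (KO) group were used, 2 from day 5 and 2 from day 14, out of 8 TCR libraries and 16 samples in the series. They held 2339 of the 5908 cells with a productive receptor chain. KO mice have the genotype CD4cre Matr3 fl/fl, and control (CON) mice CD4cre Matr3 WT/WT, so Cre recombinase driven by the Cd4 promoter is present in both. This promoter is active from the CD4+CD8+ stage of thymic development, so CD8 T cells and natural killer T cells are exposed to Cre as well as CD4 T cells. C57BL/6 mice received Hepa1-6, a line of mouse hepatoma cells, in the left lobe of the liver, and tumour-infiltrating cells were isolated on day 5 or day 14. No label says that both libraries of a group are from different mice, so a p-value covers the spread between libraries only, and that spread may be technical. Receptor tables hold no Matr3 values, and the RNA libraries are not analysed here, so the deletion itself was not checked.

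An alpha-beta T cell carries 1 receptor made of a TRA and a TRB chain, and each chain is put together in the thymus by joining a V segment to a J segment, with a D segment between them in TRB. The joint encodes CDR3, the loop that lies over the bound peptide, and its sequence labels all descendants of 1 cell, so cells with the same pair of CDR3 sequences form a clonotype. Naive T cells rarely share a receptor, while a clone that meets its antigen divides. Invariant natural killer T (iNKT) cells, which are abundant in mouse liver, are an exception, because nearly all of them use TRAV11 joined to TRAJ18 and see lipids held by CD1d. Matrin 3 is a protein of the nuclear matrix that binds RNA and DNA.

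The 4 KO libraries held 474 to 739 cells, 376 to 572 cells with both chains (paired cells) and 7683 to 13402 UMIs (unique molecular identifiers, 1 for each captured transcript) in productive chains. Reads per UMI were 1747 and 1501 at day 5 and 1179 and 1417 at day 14. Possible doublets, barcodes with at least 2 productive TRB chains or at least 3 productive TRA chains, made up 2.03% to 3.78% of cells. Any pair of KO libraries shared 0 to 2 cell barcodes. Every cell has a TRA or TRB chain by the selection rule. Productive gamma or delta chains were in 0 of these cells, and other TRD contigs in them numbered 2 to 6 a library. Immunoglobulin contigs were at 0, which says nothing about B cells in libraries of receptor chains. A MAIT-type alpha chain (TRAV1 with TRAJ33, of mucosal-associated invariant T cells) was seen in 1 cell of either day 5 library and in 0 cells of the day 14 libraries, which allows up to 0.598% and 0.512% of TRA cells. Intervals for shares are 95% exact Clopper-Pearson intervals. The limit that a count of 0 allows is given as the share of 3 cells in the library, which is lower than the upper end of such an interval. Both cover counting error only.

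Clonal expansion set the days apart in the KO group. At day 5 nearly every paired cell had a receptor of its own, and at day 14 about as many cells shared their receptor with another cell as did not. In equal samples of 376 paired cells, the share in expanded clonotypes (2 or more cells) was 3.76% and 2.39% at day 5 and 52.5% and 46.5% at day 14. Both day 14 libraries lay far above both day 5 libraries. The day 5 libraries averaged 3.07% ± 0.963 and the day 14 libraries 49.5% ± 4.21 (SD, n = 2 each), a difference of 46.4 percentage points (two-sided exact permutation test, p = 0.333). With 2 libraries against 2 that p is the smallest the test can give, so it cannot reach 0.05 for any value reported here, and over the 12 values compared in this way the adjusted p is 0.667. In CON the same difference was 48.9 points, and the KO change minus the CON change was -2.48 points (exact permutation of genotype within day, p = 0.778, where 0.0556 is the smallest possible).

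The expansion was spread over many clones of a few cells and a few large ones. Without equal sampling, expanded clonotypes numbered 8 and 4 at day 5 and 50 and 61 at day 14. At day 5 no clonotype had more than 3 cells. At day 14 clonotypes of 2 to 9 cells held 27.4% (interval 23.5 to 31.6) and 30.2% (26.5 to 34.2) of paired cells, and those of 10 or more cells held 27.6% (23.7 to 31.9) and 20.6% (17.4 to 24.2). There were 5 clonotypes of 10 or more cells in either day 14 library, with 132 and 118 cells in all. The day 5 counts of 0 for this class allow shares of up to 0.721% and 0.798% by the limit of 3 cells, and their exact intervals end at 0.883% and 0.976%. The 10 most frequent clonotypes held 4.65% and 3.99% of the sampled cells at day 5 and 34.1% and 27.2% at day 14. The unbiased Simpson index, which is the probability that any 2 different cells have the same clonotype, was 0.0116% and 0.00851% at day 5 and 2.48% and 1.901% at day 14. The plot of paired cells by clonotype size shows this shift for the KO libraries beside the CON libraries.

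**Figure D1:**
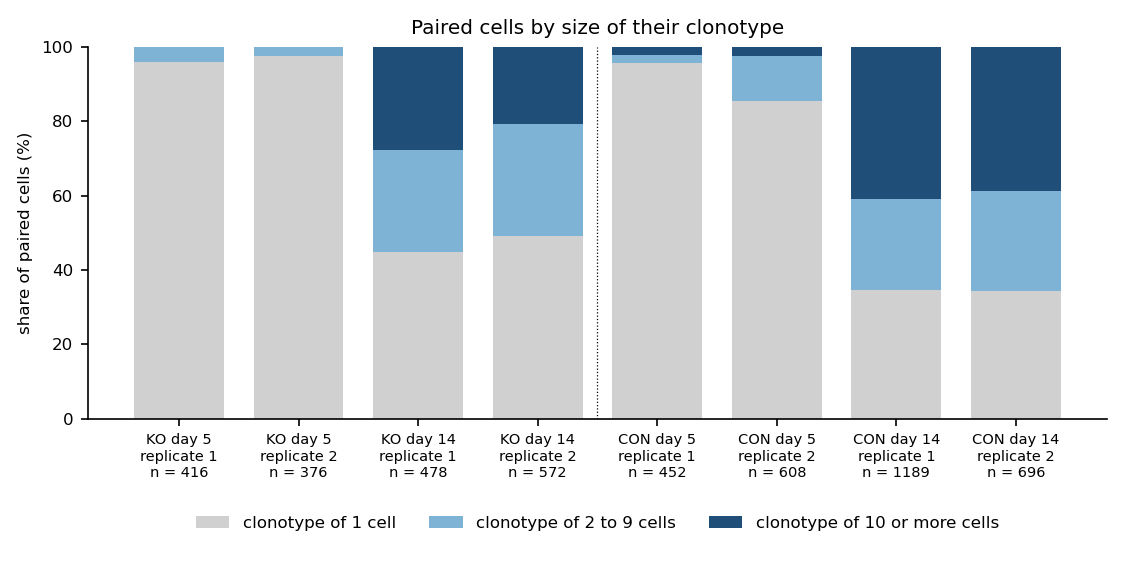
Share of paired cells (vertical axis, percent) whose clonotype held 1 cell, 2 to 9 cells or 10 or more cells, with 1 bar for each library and n the number of paired cells. Clonotypes of 1 cell held 95.9% and 97.6% of cells in the KO day 5 libraries and 45.0% and 49.1% in the KO day 14 libraries.

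The most frequent clonotypes of the day 14 libraries are shown because they held the largest single shares of either library. Sequences are CDR3 nucleotides from the deposited tables, 5′ to 3′, with the part between the 4 codons at either end in capitals.
KO day 14 replicate 1, largest, TRA: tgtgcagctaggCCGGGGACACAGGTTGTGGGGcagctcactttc
KO day 14 replicate 1, largest, TRB: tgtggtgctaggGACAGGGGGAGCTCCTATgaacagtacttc
KO day 14 replicate 1, the next, TRA: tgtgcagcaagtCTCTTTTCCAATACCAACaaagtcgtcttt
KO day 14 replicate 1, the next, TRB: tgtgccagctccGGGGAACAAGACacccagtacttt
KO day 14 replicate 2, largest, TRA: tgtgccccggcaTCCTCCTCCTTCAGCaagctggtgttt
KO day 14 replicate 2, largest, TRB: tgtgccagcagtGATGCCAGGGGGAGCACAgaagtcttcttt
In replicate 1 the largest clonotype joined TRAV7-4/TRAJ5 to TRBV20/TRBJ2-7 and held 63 of 478 paired cells, or 13.2% (interval 10.3 to 16.5). The next joined TRAV10/TRAJ34 to TRBV12-1/TRBJ2-5 and held 32 cells (6.69%), and the one after it joined TRAV5-4/TRAJ42 to TRBV13-1/TRBJ2-2 and held 14 cells (2.93%). In replicate 2 the largest joined TRAV13-3/TRAJ50 to TRBV13-1/TRBJ1-1 and held 73 of 572 paired cells, or 12.8% (interval 10.1 to 15.8). It was followed by TRAV6-7/TRAJ34 with TRBV3/TRBJ1-1 and by TRAV7-6/TRAJ22 with TRBV5/TRBJ2-7, with 12 cells each (2.10%). The largest clonotypes of the replicates thus differed in all 4 segments. Each was found in 0 cells of the other 3 KO libraries.

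The largest clonotypes of day 5 were TRAV6-6/TRAJ40 with TRBV1/TRBJ2-7 in replicate 1 and TRAV5-4/TRAJ13 with TRBV13-3/TRBJ2-7 in replicate 2, with 3 cells each. Below them were clonotypes of 2 cells, of which replicate 1 had 7 and replicate 2 had 3. The naming rule takes the 3 most frequent, with ties broken by name. It therefore also names 2 iNKT-type clonotypes of replicate 1, with TRBV12-2+TRBV13-2 and with TRBV13-1. In replicate 2 it names TRAV4-4/TRAJ39 with TRBV31/TRBJ2-7 and TRAV9-3/TRAJ22 with TRBV16/TRBJ2-5. None of the 12 clonotypes named this way had its TRB nucleotide sequence in any other library.

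Some day 14 clones carried a pair of productive TRA chains, and this splits 1 clone into separate clonotypes when only the stronger chain is read. The TRB chain of the largest clonotype of replicate 2 was found in 86 cells, of which 83 had a TRA chain. In 53 of these both TRAV13-3/TRAJ50 and TRAV6-6/TRAJ43 were read, in 29 only the first and in 1 only the second. The TRBV3/TRBJ1-1 chain of the next clonotype was found in 23 cells, and 12 of them carried both TRAV6-7/TRAJ34 and TRAV12-2/TRAJ39. In replicate 1 none of the 5 TRB chains with 10 or more paired cells came with 2 TRA chains. With the TRB chain alone as the clonotype, the share of cells in expanded clonotypes was 7.47% and 3.25% at day 5 and 53.1% and 47.6% at day 14.

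The largest TRB chain of replicate 2 had a counterpart in the other genotype. This and the comparisons up to the account of iNKT-type cells were chosen after their values were seen and are descriptions with no test. The same TRBV13-1/TRBJ1-1 amino acid sequence of 14 residues was found in 151 cells of CON day 14 replicate 2, always from a different nucleotide sequence.
KO day 14 replicate 2, TRB of 86 cells: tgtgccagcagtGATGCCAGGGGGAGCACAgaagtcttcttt
CON day 14 replicate 2, TRB: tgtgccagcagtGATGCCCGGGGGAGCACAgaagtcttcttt
KO and CON day 14 replicate 2, TRAV6-6/TRAJ43: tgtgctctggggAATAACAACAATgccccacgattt
The alpha partners were alike too. As the stronger TRA chain, TRAV13-3/TRAJ50 was read in 73 of these KO cells, and TRAV7-5/TRAJ50 in 111 of these CON cells. The TRAV6-6/TRAJ43 sequence shown was read in 54 cells of the KO library and in 110 of the CON library. It was in 0 cells of all other libraries.

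A group of near-identical beta chains was absent at day 5 and present in both day 14 KO libraries. Over the 8 libraries, TRB chains with the same V, the same J and the same length were linked where they differed by at most 1 residue, and 24 linked groups held 4 or more amino acid sequences. Of these groups 8 had KO cells at day 14 only, 5 at day 5 only and 10 on both days, and 1 had no KO cells. The group with the most KO cells joined TRBV12-1 to TRBJ2-5 with a CDR3 of 12 residues. It held 11 amino acid sequences from 13 nucleotide sequences. It was found in 0 and 0 cells at day 5, which allows up to 0.545% and 0.649% of TRB cells. At day 14 it was found in 63 cells of replicate 1 (11.5% of TRB cells, 6 amino acid sequences) and in 12 cells of replicate 2 (1.66%, 3 sequences). In CON it was in 0 and 0 cells at day 5 and in 42 (3.095%) and 69 (8.65%) at day 14. Members from the KO libraries show how different codons led to like proteins.
33 cells of replicate 1: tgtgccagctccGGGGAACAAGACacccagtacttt
9 cells of replicate 1: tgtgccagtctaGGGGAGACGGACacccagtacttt
7 cells of replicate 1: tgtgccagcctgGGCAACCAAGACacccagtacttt
2 cells of replicate 2: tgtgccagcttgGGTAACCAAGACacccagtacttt
6 cells of replicate 2: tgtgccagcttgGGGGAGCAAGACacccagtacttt
4 cells of replicate 2: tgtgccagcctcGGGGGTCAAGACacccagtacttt
The third and the fourth of these encode the same protein. The fifth was also in 45 cells of CON day 14 replicate 2. There it came with another TRAV5-1/TRAJ27 sequence, and none of its barcodes was shared with the KO library.

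The alpha partners of this group were also alike. Of its 73 day 14 KO cells with a TRA chain, 67 (91.8%) used TRAV10 or TRAV5-1, against 26 of the 977 other paired cells of these libraries (2.66%). TRAJ27 was used in 30 of the 73 cells and TRAJ34 in 34, of which 32 belong to 1 clonotype. Counted by clonotype, 10 of 13 used TRAV10 or TRAV5-1 and 8 of 13 used TRAJ27, against 18 and 33 of 593 other clonotypes. These are pairs of a TRA and a TRB chain, so 1 TRB sequence can count more than once, and the 13 came from 8 TRB amino acid sequences. A TRB sequence of 9 cells came with TRAV10/TRAJ52 in 5, TRAV9-4/TRAJ48 in 2 and TRAV5-1/TRAJ37 in 2. Another of 7 cells came with TRAV10/TRAJ27 in 4 and TRAV5-1/TRAJ27 in 3. Whether such pairs are parts of 1 clone was not tested. In replicate 2 all 11 cells with a TRA chain used TRAJ27, and in replicate 1 19 of 62 did. In the CON day 14 libraries 107 of 108 such cells used TRAJ27. At day 5 the TRBV12-1/TRBJ2-5 pairing was in 3 cells of either KO library, all with a CDR3 of 13 or more residues.

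**Figure D2:**
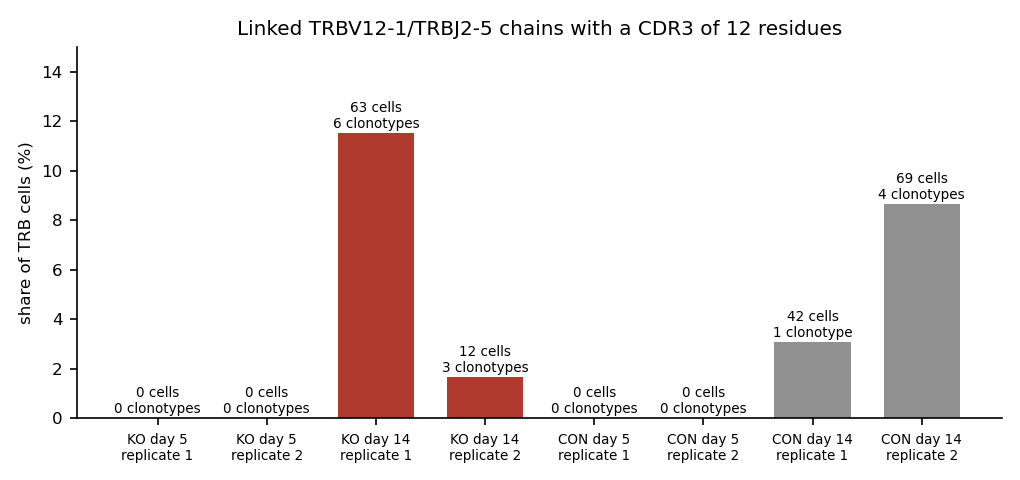
Share of TRB cells (vertical axis, percent) in the linked group of TRBV12-1/TRBJ2-5 chains, with 1 bar for each library, the KO libraries in red and the CON libraries in grey, and the number of cells and amino acid clonotypes printed above. The group is at 0 in every day 5 library and at 1.66% to 11.5% in the day 14 libraries.

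Few beta chains were shared between KO libraries, and the rate of sharing per possible pair was highest between the day 14 libraries. Of 296 and 420 TRB amino acid sequences in the day 14 libraries, 7 were in both, which is 2.36% and 1.67% of either list. The day 5 libraries, with 523 and 453 sequences, shared 2 (0.382% and 0.442%). Between a day 5 and a day 14 library the number was 0 to 4. Scaled to 1000000 possible pairs of sequences these are 56.3 shared within day 14, 8.44 within day 5 and 0 to 21.02 between days. Allowing 1 residue to differ gave 233 like pairs on the same scale within day 14, 59.1 within day 5 and 22.4 to 73.6 between days. Only 1 pair of libraries is available within either day, so the difference has no replicate check.

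Of TRB sequences found in 2 or more KO libraries, 8 had 2 or more cells in at least 1 of them. TRBV5/TRBJ2-7 with 11 residues was in 2 and 24 cells of the day 14 libraries and in 112 and 3 of the CON day 14 libraries. In KO it came from 3 nucleotide sequences, and 19 of the replicate 2 cells carried TRAV7-6/TRAJ22. TRBV1/TRBJ2-7 with 14 residues was in 13 and 2 cells, and 10 of the 13 had TRAV6-6/TRAJ43. TRBV3/TRBJ2-3 was in 5 cells of either day 14 library, from a different nucleotide sequence in each, with TRAV3-3/TRAJ27 in 5 and 1 of them. TRBV19/TRBJ1-3 was the one found in 3 KO libraries, with 1 cell at day 5 and 4 and 2 at day 14, from 4 nucleotide sequences. TRAV14-2/TRAJ7 was its partner in 3 cells of one day 14 library and 1 of the other, and TRAV14-3/TRAJ7 in the day 5 cell. A TRBV12-1/TRBJ2-5 sequence of the linked group was in 7 and 2 cells at day 14. TRBV12-2+TRBV13-2/TRBJ2-5 was in 1 day 5 and 2 day 14 cells. There were 2 different sequences of TRBV3/TRBJ2-7, one in 1 day 5 and 3 day 14 cells and one in 2 and 1 day 14 cells. The latter was the only complete clonotype, both chains at the nucleotide level, found in 2 KO libraries.
TRAV9-1/TRAJ23: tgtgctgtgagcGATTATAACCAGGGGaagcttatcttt
TRBV3/TRBJ2-7: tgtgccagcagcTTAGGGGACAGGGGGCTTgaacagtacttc
The same pair was in 11 and 1 cells of the CON day 14 libraries, and none of these cells had a barcode found in another library.

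iNKT-type cells, defined here by TRAV11 joined to TRAJ18 alone, made up a much smaller share of TRA cells at day 14 than at day 5. The share was 29.6% (interval 25.3 to 34.2) and 30.2% (25.6 to 35.0) at day 5 and 3.78% (2.29 to 5.85) and 5.80% (4.05 to 8.01) at day 14. The day 5 libraries agree within counting error, and both lie far above both day 14 libraries. The mean was 29.9% ± 0.377 and 4.79% ± 1.43 (SD, n = 2 each; exact permutation test, p = 0.333, adjusted 0.667). In CON the difference between days was -24.5 points against -25.1 in KO (exact permutation test of the difference, p = 0.944). The cells numbered 125 and 117 at day 5 and 19 and 34 at day 14, while other TRA cells numbered 297 and 271 and then 483 and 552. Fewer iNKT-type cells and more of the others cannot be told apart in a share, and how many cells each tumour held is not given in the sources used here.

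The iNKT-type cells were of many clones. At day 5 the 124 and 115 paired cells had 122 and 115 different TRB sequences, and at day 14 the 18 and 31 had 18 and 28. As a share of pair clonotypes, each counted once, iNKT-type receptors were 29.98% and 31.0% at day 5 and 6.79% and 8.19% at day 14. Counted by TRA sequence alone, the shares were 3.39% and 2.56% at day 5 and 1.57% and 1.86% at day 14, since most of the cells share a few TRA sequences. The 2 most frequent of these encode the same protein.
104 KO cells: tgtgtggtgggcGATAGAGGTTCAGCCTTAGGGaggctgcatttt
84 KO cells: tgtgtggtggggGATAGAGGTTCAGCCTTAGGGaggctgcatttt
The first was in 42 and 40 iNKT-type cells at day 5 and in 8 and 14 at day 14, and the other in 31, 41, 3 and 9. The protein they encode was found in 93.6%, 96.6%, 100% and 91.2% of iNKT-type cells in the same order of libraries.

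iNKT-type cells are known for beta chains of the Vbeta8 family (TRBV13 segments), which under their own names made up 36 of 124 and 22 of 115 paired iNKT-type cells at day 5 and 4 of 18 and 6 of 31 at day 14. The deposited name TRBV12-2+TRBV13-2 stands for a Vbeta5 and a Vbeta8 segment that the tables do not tell apart. It was given to 68 of 124 and 65 of 115 paired iNKT-type cells at day 5 and to 6 of 18 and 20 of 31 at day 14. TRBV13-1 followed, with 25, 11, 1 and 5 cells. TRBV1 (Vbeta2) had 5, 15, 3 and 2 cells and TRBV29 (Vbeta7) 9, 7, 3 and 3. Together Vbeta8, Vbeta7, Vbeta2 and the joint name made up 95.2% and 94.8% of paired iNKT-type cells at day 5 and 88.9% (interval 65.3 to 98.6) and 100% (88.8 to 100) at day 14. The joint name made up 54.8% and 56.5% at day 5 and 33.3% (13.3 to 59.0) and 64.5% (45.4 to 80.8) at day 14, with the day 14 libraries on either side of the day 5 values. Vbeta8 and the joint name together made up 83.9% and 75.7% at day 5 and 55.6% (30.8 to 78.5) and 83.9% (66.3 to 94.5) at day 14, and a change in the mix of V beta segments was not tested.

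**Figure D3:**
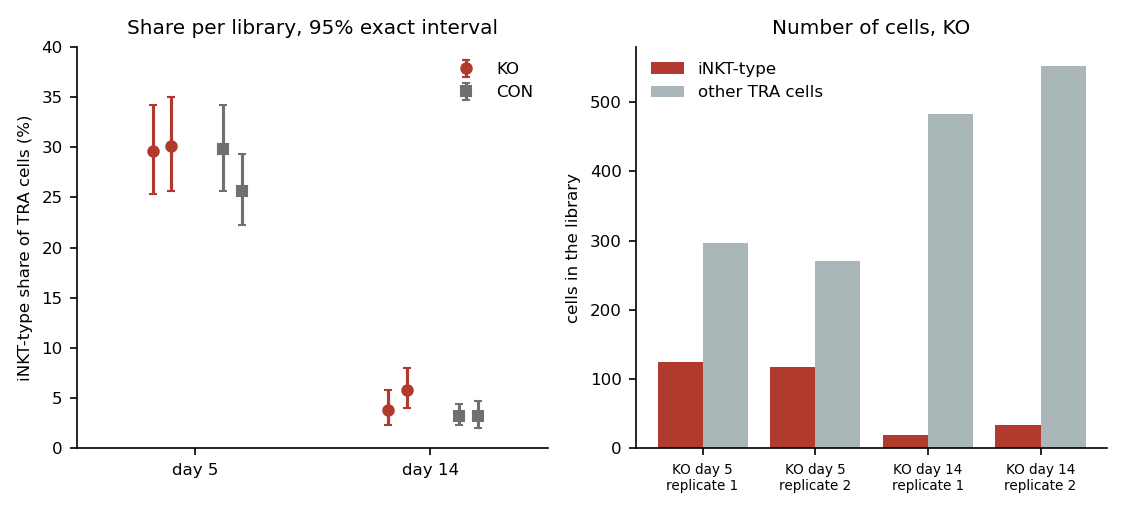
Left, share of TRA cells (vertical axis, percent) with TRAV11 joined to TRAJ18 in each KO library (red circles) and CON library (grey squares), with 95% exact binomial intervals. Right, number of iNKT-type and of other TRA cells (vertical axis) in each KO library. The day 5 KO libraries are at 29.6% and 30.2% and the day 14 KO libraries at 3.78% and 5.80%.

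Segment use was then tested across both loci. Cell counts of 98 V and J segments were fitted with edgeR's quasi-likelihood test over the 8 TCR libraries, relative to the TRA or TRB cells of each library. In KO 3 segments fell from day 5 to day 14 at an adjusted p under 0.05 (3.06% of those tested) and 0 rose (0%). DESeq2 called the same 3 and 1 higher segment, and 14 segments had an unadjusted p under 0.05 in edgeR. TRAV11 and TRAJ18 define the iNKT-type chain, and iNKT-type cells were 68 of 125 and 65 of 108 cells with the joint name TRBV12-2+TRBV13-2 at day 5 and 6 of 38 and 20 of 67 at day 14. TRAV11, at chr14:53519303-53519859 in GRCm38, made up 30.1% and 30.2% of TRA cells at day 5 and 3.98% and 5.80% at day 14. It changed by -2.61 ± 0.27 on the log2 scale (SE; edgeR adjusted p = 0.000445). TRAJ18, at chr14:54200777-54200842, went from 30.8% and 31.2% to 5.78% and 8.53% (-2.11 ± 0.27, edgeR adjusted p = 0.00106). The joint name TRBV12-2+TRBV13-2 went from 22.7% and 23.4% of TRB cells to 6.96% and 9.24% (-1.50 ± 0.24, edgeR adjusted p = 0.00515). This last call was lost without KO day 5 replicate 1 or replicate 2 (edgeR adjusted p = 0.083 and 0.101) and with the 4 KO libraries alone (0.0991). With iNKT-type cells left out, 0 of 97 segments were called in edgeR and 11 had an unadjusted p under 0.05. TRAJ18 then turned to +0.65 and the joint name stood at -1.003 (edgeR adjusted p = 0.608 and 0.262). Leaving out those cells also moved the median log2 fold change of all segments from 0.13 to -0.22, because the remaining segments take a larger share of the day 5 libraries.

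In CON the same fit called 3 segments lower (3.06%), which were TRAV11 (-3.03), TRAJ18 (-2.96) and the joint name (-1.64), and 1 higher (1.02%), TRAJ27 (2.43 on the log2 scale). The test of the difference between KO and CON called no segment. Of 98 segments 0 rose more (0%) and 0 fell more (0%) in KO at an adjusted p under 0.05 in edgeR's interaction test, and 4 had an unadjusted p under 0.05. DESeq2 also called 0, with 1 at an unadjusted p under 0.05. The smallest adjusted p was 0.565, for TRAJ5, at 6.97 ± 1.95 on the log2 scale. Without KO day 14 replicate 2 TRAJ5 was called, which was the only call among the settings tried. For TRAV11 the difference was 0.42 ± 0.37, for TRAJ18 0.86 ± 0.37 and for the joint name 0.13 ± 0.34 (edgeR adjusted p = 0.901, 0.901 and 0.916).

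The segments that came next by p did not pass the threshold. Among those with higher shares at day 14, TRAJ5, TRBV20 and TRAJ34 were made up mainly of 1 clone in replicate 1, and TRBV12-1, TRAJ27, TRBV3 and TRAV9-1 were not. TRAJ5 was in 1 and 0 cells at day 5 and in 67 and 6 at day 14, and 65 of the 67 came from 1 TRA sequence (log2 fold change 5.64 ± 1.54, edgeR adjusted p = 0.0971). TRBV20, the largest clone's beta segment, was at 1.64% and 1.73% and then 13.9% and 2.21%, with 70 of 76 cells in replicate 1 from that clone (2.24 ± 0.80, edgeR adjusted p = 0.204). TRAJ34 was at 2.61% and 1.55% and then 9.96% and 3.92%, and its largest TRA sequence held 32 of 50 and 13 of 23 cells. TRBV12-1 was at 2.18% and 4.98% and then 16.5% and 5.38%, with 33 of 90 cells in replicate 1 from the clone shown above. TRAJ27 was at 4.03% and 2.84% and then 8.17% and 6.48%, spread over 18 and 21 TRA sequences. None of these passed the threshold in KO with all libraries in edgeR. Without KO day 14 replicate 2 there were 5 higher and 6 lower calls, and TRAJ5, TRBV20 and TRAJ34 were among the higher ones. Without KO day 14 replicate 1 TRBV3 was the only higher call.

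Many clonotypes contributed to TRBV3 and TRAV9-1, as they did to TRBV12-1 and TRAJ27. TRBV3 was in 35 and 26 cells of 34 and 26 TRB sequences at day 5, and in 51 and 125 cells of 37 and 50 sequences at day 14, when fewer sequences were seen in all. Its share of TRB cells was 6.36% and 5.63% and then 9.34% and 17.2% (1.15 ± 0.35, edgeR adjusted p = 0.148). TRAV9-1 was at 1.18% and 1.03% and then 4.18% and 4.61% (1.97 ± 0.62, edgeR adjusted p = 0.154), from 5, 4, 16 and 15 TRA sequences. Counting each clonotype once takes clone size out but keeps iNKT-type receptors in. Both then rose in KO, at 0.96 and 1.74 on the log2 scale (edgeR adjusted p = 0.0106 and 0.0122), and TRBV12-2+TRBV13-2 was the only segment called lower. Without iNKT-type cells neither was called in edgeR with cells counted, and a count by clonotype was not made there. That count made 2 higher and 1 lower calls among 88 segments. It put TRBV12-1 at 0.97 and TRAJ27 at 0.51 (edgeR adjusted p = 0.0911 and 0.654). The day change minus that in CON was -0.10 ± 0.49 for TRBV3 and 1.72 ± 0.83 for TRAV9-1 with cells counted (edgeR adjusted p = 0.961 and 0.901). Among day 14 clonotypes that were not iNKT-type, TRBV3 was used by 7 of 45 expanded and 26 of 196 unexpanded TRB sequences in replicate 1 and by 14 of 55 and 31 of 251 in replicate 2. At day 5 it was used by 0 of 6 and 0 of 4 expanded ones. Of unexpanded ones it was in 25 of 279 (8.96%) and 22 of 252 (8.73%) at day 5, against 13.3% and 12.4% at day 14. Among unexpanded clonotypes that were not iNKT-type, TRAV9-1 was at 1.79% and 1.59% and then 6.60% and 5.12%.

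**Figure D4:**
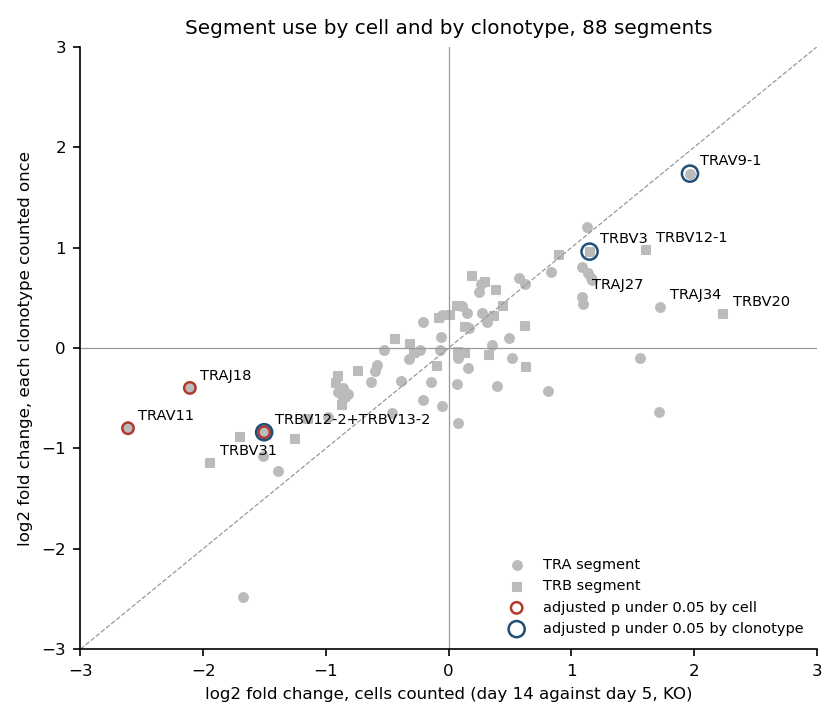
Log2 fold change from day 5 to day 14 in KO with cells counted (horizontal axis) and with each clonotype counted once (vertical axis), for the 88 segments tested both ways. Circles are TRA and squares TRB segments, rings mark an adjusted p under 0.05 and the dashed line marks equal values. TRAV11 and TRAJ18 lie at -2.61 and -2.11 by cell and at -0.80 and -0.40 by clonotype, while TRBV3 and TRAV9-1 lie near the line.

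On the lower side, TRBV31, the beta segment that lies beyond the constant regions in inverted orientation, was at 4.18% and 4.98% at day 5 and 1.10% and 1.24% at day 14. Its cells numbered 23, 23, 6 and 9 and nearly all were single (-1.95 ± 0.51, edgeR adjusted p = 0.0946). Counted by clonotype the change was -1.15 (edgeR adjusted p = 0.0911). TRBV13-2 under its own name was at 2.91% and 2.16% and then 0.549% and 0.966% (-1.70 ± 0.62, edgeR adjusted p = 0.204). TRBV13-3 was at 5.27% and 9.96% and then 2.38% and 4.41%. In all, 22 segments (22.4%) had both day 14 libraries above both day 5 libraries and 21 (21.4%) had both below.

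Groups of segments are set beside the median of all 98 segments, which was 0.13 on the log2 scale. Both members of the iNKT-type alpha pair were called (median -2.36). The only call in the other groups was TRAJ18 of that same pair, which is also in a group of J alpha segments below. The 5 segments known from iNKT beta chains, without the joint name that was called on its own, had 0 members called and a median of -0.74, from TRBV13-2 (-1.70), TRBV13-3 (-1.14) and TRBV29 (-0.74) to TRBV1 (0.011) and TRBV13-1 (0.63). The Vbeta8 family without the joint name made up 17.6% and 18.6% of TRB cells at day 5 and 10.99% and 21.9% at day 14, with a median of -1.14. With the joint name it made up 40.4% and 41.99% at day 5 and 17.9% and 31.2% at day 14, so both day 14 libraries then lay below both day 5 libraries. In replicate 2 of day 14 86 of 120 TRBV13-1 cells came from 1 clone. Vbeta5 (TRBV12-1 and TRBV12-2) made up 6.73% and 8.44% and then 20.5% and 10.5%, with 0 of 2 called and TRBV12-2 at 0.19. Of the MAIT-type alpha segments only TRAJ33 could be tested (-1.51, edgeR adjusted p = 0.334).

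J alpha segments are used in order, since early rearrangements take those nearest to the V segments and later ones those farther away. The V-distal J segments (TRAJ2 to TRAJ18) went from 46.2% and 47.2% of TRA cells to 38.0% and 20.6%, with 1 of 10 tested members lower (TRAJ18), 0 higher and a median of -0.13. Without iNKT-type cells their share was 23.6% and 24.4% at day 5 and 35.6% and 15.8% at day 14, so the day 14 libraries lay on either side. TRAJ5 (5.64) and TRAJ6 (1.03) were the other extreme members. The middle segments (TRAJ21 to TRAJ39) had 0 of 13 members called and a median of 0.07, with TRAJ34 at 1.72, TRAJ33 at -1.51 and TRAJ26 at -1.39. The V-proximal segments (TRAJ40 and higher) had 0 of 11 called and a median of 0.26. TRAJ50 was at 0.948% and 1.03% and then 0.598% and 13.3%, with 74 of 78 cells in replicate 2 from 1 clone. TRAJ43 (1.10) and TRAJ40 (-0.82) came next.

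The V alpha segments listed by number for the ends of the locus and the J beta clusters had 0 members called as well. TRAV16, the single tested member of the J-proximal end, was at -0.23, and TRAV2 of the J-distal end was at 2.25. The J-distal list also holds TRAV3-3 by its number, at 0.83. The copy of TRAV3-3 with the plain name starts at chr14:53666005, however, closer to TRAV16 (chr14:53743174) than to TRAV2 (chr14:52567293). TRAV2 was in 1 and 2 cells and then 1 and 20, 8 of them from 1 sequence. The Jbeta1 cluster made up 35.1% and 33.8% of TRB cells at day 5 and 20.1% and 39.3% at day 14, with a median of -0.65 and TRBJ1-5 (-1.25), TRBJ1-3 (-0.90) and TRBJ1-2 (-0.86) lowest. Jbeta2 had a median of 0.13, with TRBJ2-2 at 0.37, TRBJ2-5 at 0.33 and TRBJ2-1 at -0.28. By clonotype the share of the TRBC1 constant region, which follows Jbeta1, was 34.9%, 34%, 29.3% and 33.6%, so the spread between the day 14 libraries was much wider by cell (20.1% and 39.2%) than by clonotype. In these libraries the 2 largest clones used TRBJ2-7 and TRBJ1-1.

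Counted by clonotype, the mean CDR3 length of the days overlapped for both chains. The mean TRB length over clonotypes was 13.9 and 14.0 residues at day 5 and 13.9 and 13.9 at day 14, a difference of -0.0253 residues (exact permutation test, p = 1). Without iNKT-type cells the TRB means were 13.91 and 13.96 at day 5 and 13.86 and 13.90 at day 14, which do not overlap (exact permutation test, p = 0.333). The mean TRA length was 13.8 and 13.5 and then 13.6 and 13.6 residues (exact permutation test, p = 1). By cell, where large clones and iNKT-type cells weigh more, the days did not overlap. The mean TRA length by cell was 14.1 and 13.9 residues at day 5 and 13.8 and 13.7 at day 14. TRA chains of 15 residues, the length of the iNKT-type chain, made up 41.2% and 39.9% of TRA cells and then 24.9% and 17.2%. Without iNKT-type cells these shares were 16.5% and 14.0% and then 21.9% and 12.1%, and the mean lengths overlapped. The mean TRB length by cell was 13.85 and 13.99 residues at day 5 and 13.76 and 13.82 at day 14. The TRB difference was -0.133 residues, and 17.8% and 15.4% of TRB cells at day 5 against 24.2% and 15.9% at day 14 had 12 residues or fewer. Among day 14 clonotypes that were not iNKT-type, 14 of 45 expanded TRB sequences in replicate 1 had 12 residues or fewer (31.1%) against 35 of 196 unexpanded ones (17.9%). In replicate 2 it was 14 of 55 (25.5%) against 35 of 251 (13.9%).

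The central part of the TRB CDR3 had a higher hydropathy in both day 14 libraries. The mean Kyte-Doolittle hydropathy of that part, over clonotypes, was -1.16 and -1.20 at day 5 and -1.05 and -1.04 at day 14, and the groups did not overlap. The difference was 0.136 (exact permutation test, p = 0.333, adjusted 0.667), and 0.0992 in CON (exact permutation test of the difference, p = 0.5). It was 0.0729 without iNKT-type cells, where day 5 was at -1.06 and -1.17, and it turned to -0.0148 when cells were averaged in place of clonotypes. The net charge of the same part was -0.566 and -0.533 at day 5 and -0.452 and -0.554 at day 14, so the groups overlapped.

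Over all paired cells, those with 2 productive TRA chains were more frequent in both day 14 libraries, by differing amounts. Their share of paired cells was 5.77% (interval 3.73 to 8.46) and 8.51% (5.89 to 11.8) at day 5 and 10.3% (7.68 to 13.3) and 17.0% (14.0 to 20.3) at day 14. The difference of 6.46 points (exact permutation test, p = 0.333, adjusted 0.667) was 3.11 without KO day 14 replicate 2 and 9.82 without KO day 14 replicate 1. In replicate 2, 65 of the 97 such cells belonged to TRB chains of 10 or more paired cells, 53 of them to the TRBV13-1/TRBJ1-1 clone described above. Outside those chains 7.37% of its paired cells had 2 TRA chains, while in replicate 1 it was 14.2%. Counting every TRB clonotype a single time gave 5.90%, 8.63%, 11.6% and 7.53%, a difference of 2.32 points, and the days overlapped. They also overlapped without iNKT-type cells, at 7.88% and 12.3% at day 5 and 10.7% and 17.9% at day 14. That difference was 4.22 points (exact permutation test, p = 0.667). In cells thinned to 4 TRA UMIs each, the shares were 8.89% and 11.9% at day 5 and 13.2% and 22.9% at day 14, and the days did not overlap.

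Cells with no TRA chain made up 24.1% and 18.1% of cells at day 5 and 11.9% and 20.7% at day 14, so the groups overlapped. With iNKT-type cells, which have a TRA chain by definition, left out, the shares were 31.1% and 24.1% and then 12.3% and 21.7%. There the groups did not overlap, and the difference was -10.6 points (exact permutation test, p = 0.333).

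Median receptor transcript counts of the days overlapped over all cells. For TRB, the class of the largest clonotypes had the highest median within either day 14 library. The median TRB UMIs per cell over all cells were 8.5 and 9 at day 5 and 10.5 and 9 at day 14, and the median TRA UMIs were 3 and 4 and then 5 and 4 (exact permutation test, p = 0.667 for either, adjusted 0.8). The mean TRB UMIs per cell were 11.1 and 11.7 at day 5 and 14.2 and 13.5 at day 14. Without iNKT-type cells the median TRB UMIs were 8 and 9 and then 11 and 10. In both of these settings the days did not overlap. Within day 14, cells of clonotypes with 10 or more cells had a median of 15.5 and 21 TRB UMIs, those of 2 to 9 cells 11 and 12, and unexpanded cells that were not iNKT-type 10 and 8. For TRA the medians were 5 and 7, 6 and 4, and 5 and 4 in the same order. The TRBV20/TRBJ2-7 clone had a median of 21 TRB UMIs and the TRBV13-1/TRBJ1-1 clone 25 and the TRBV12-1/TRBJ2-5 clonotype of 32 cells had 7, so large clones differed widely. The first 2 of these held 63 of the 132 and 73 of the 118 cells of their class and so weigh most in its medians. Among the other TRB chains with 10 or more paired cells the medians were 7, 15, 11 and 9.5 in replicate 1 and 14, 9, 18 and 15 in replicate 2. Over unexpanded clonotypes alone, iNKT-type ones included, the median TRB UMIs were 10 and 10 at day 5 and 9 and 8 at day 14, a difference of -1.5. iNKT-type cells had a median of 10 and 11 TRB UMIs at day 5 and 8.5 and 7 at day 14. Reads per UMI and productive UMIs also differed between the libraries, as given above, and their part in these values was not tested.

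**Figure D5:**
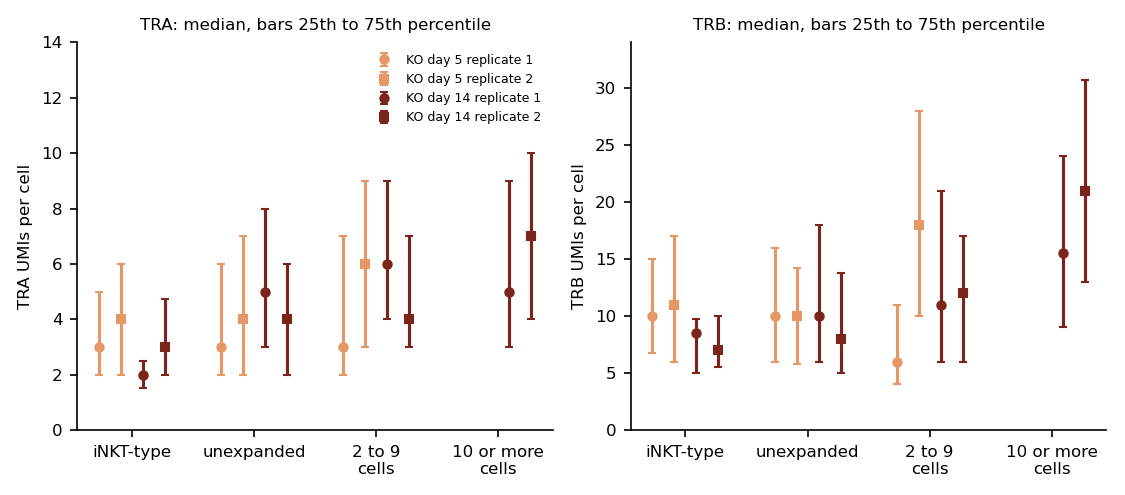
Median TRA UMIs (left) and TRB UMIs (right) per cell (vertical axes) for iNKT-type cells, other unexpanded cells, and other cells in clonotypes of 2 to 9 or of 10 or more cells, for each KO library, with bars from the 25th to the 75th percentile of cells. The highest medians of the day 14 libraries are those of TRB in clonotypes of 10 or more cells, at 15.5 and 21 UMIs, a class with no cell at day 5. Clonotypes of 2 to 9 cells had TRB medians of 6 and 18 at day 5, from 13 and 9 cells.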

How the data were processed

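TCR contigs were analysed from 4 KO libraries, with the 4 CON libraries in the shared fits. Per the labels' protocols, dissociated tumour cells were captured with a droplet 5′ kit. The tools listed, per the submitters' processing notes and without a role, are Seurat 4.0.0, R 4.1.2, Cell Ranger 3.1.0 and CASAVA 1.8, and the build is GRCm38 (mm10). The authors deposited, per the file headers, whole-number counts of UMIs and reads for each contig, and contig lengths, which were not compared.

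High-confidence productive contigs of barcodes called cells were kept, and the TRA and TRB chain with the most UMIs (ties by reads) stood for the cell. TRAV names of duplicated locus copies were merged (88 names to 47), and the joint name TRBV12-2+TRBV13-2 was kept. Cells whose TRA and TRB both matched in V, in J and in CDR3 nucleotides were 1 clonotype. Possible doublets were kept except in an alternative. Expanded shares were computed for samples of 376 paired cells, in closed form, and the 10 most frequent clonotypes from 1000 draws. Hydropathy leaves out 4 residues at either CDR3 end. Positions are those of RefSeq genes of GRCm38.p6, matched for 122 of 124 segments, and for merged TRAV names they are of the copy with the plain name.

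Segments were tested where the 8 libraries held at least 40 of their cells, in edgeR 4.0.16 (R 4.3.3) with 4 group means and the number of TRA or TRB cells as offset, and Benjamini-Hochberg adjustment over the 98. DESeq2 1.42.0 was the alternative tool. Single values were compared by exact permutation of libraries, adjusted over 12 values. Scripts were tested on simulated data. Named are the segments past the threshold, or the 12 of smallest p where fewer pass, the most changed members of each list, the 3 most frequent clonotypes of each KO library and TRB sequences found in 2 or more KO libraries with 2 or more cells in one. The members, lists and tests were chosen with earlier results of these data known.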

Additional observations from a re-analysis of the deposited data

How the results depend on the processing

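Results of the KO comparison were recomputed with other filters, tools and units and without each library. The count of called segments (3, of which 0 higher and 3 lower) became 0 without iNKT-type cells (0 lower). DESeq2 called 1 higher. With each clonotype counted once, 2 were higher and 1 lower. Leaving out 1 of the 8 libraries gave 2 to 11 calls in all, 0 to 5 higher and 2 to 6 lower, with 11 without KO day 14 replicate 2. The test of the difference from CON gave 0 to 1 calls, 0 to 1 higher, over the same fits. With the replicate number as a block, 1 segment was called higher, TRAJ5, and 3 lower. The labels give no pairing. The correlation of the deviations of same-numbered KO libraries was 0.0696 over 98 segments, and whether libraries of the same number share a batch was not tested.

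TRAV11 and TRAJ18 kept an edgeR adjusted p under 0.05 in every setting but the count by clonotype and, for TRAJ18, the fit without iNKT-type cells, where it turned to 0.65 (TRAV11 could not be tested there). The joint name lost its call with the 4 KO libraries alone (edgeR adjusted p = 0.0991), without either KO day 5 library (0.083 and 0.101) and without iNKT-type cells (0.262). Other named segments turned sign without having been called. Without 1 KO library, TRAJ50 ranged from -0.71 to 3.72, TRAV2 from -0.84 to 3.13, TRBJ2-1 from -0.72 to 0.039, TRBJ2-5 from -0.31 to 0.78 and TRAV16 from -0.69 to 0.46. The others were TRBV12-2 (-0.14) without iNKT-type cells, and TRBJ2-5 (-0.069) and TRBV13-1 (-0.19) with each clonotype counted once.

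The difference in expanded share was 49.7 points over all paired cells, and that in the iNKT-type share -1.26 points with each TRA sequence counted once. The TRB length difference was 0.00315 residues without possible doublets, -0.133 over cells and -0.0923 to 0.0417 without 1 KO library. As settings chosen after seeing the data, the TRA length difference (-0.0439 residues) was -0.312 over cells and 0.0382 over cells without iNKT-type cells. The hydropathy difference was 0.0729 without iNKT-type cells, -0.0148 over cells and 0.0975 with 3 residues left out at either end. The TRB UMI difference was 2.0 without iNKT-type cells, 2.43 as a mean and -1.5 over unexpanded clonotypes. The share with 2 TRA chains differed by 4.22 points without iNKT-type cells and by 2.32 points with each TRB clonotype counted once. In cells thinned to 4 TRA UMIs it differed by 7.65 points. The cause of these shifts was not tested beyond what the settings themselves change. With 2 libraries a day no permutation test could pass its threshold, and a count of 0 allows a share of up to 0.798% of paired cells in the smallest library.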
